A study of Mus musculus with 2 samples.

Results

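Vascular smooth muscle cells and pericytes, the mural cells that wrap blood vessels, were followed in mouse heart through 10 marker genes, Tagln, Cnn1, Mylk, Smtn, Pdgfrb, Rgs5, Cspg4, Notch3, Vtn and Higd1b. The genes were taken by symbol from the transcript names and linked to the gene tables by gene identifier, and each symbol belonged to 1 of the 55536 annotated genes. Total RNA was sequenced from the hearts of female B6CASTF1/J mice, the F1 hybrid of C57BL/6J and CAST/EiJ, at 14 days of age, with no treatment named in the labels. There were 2 libraries in 1 group, replicates 1 and 2, each made from 300 ng of RNA, and the study has no other group to set them against. The tissue labels give the 2 libraries different animal numbers, while both carry the same donor label and the shared description can be read as a pool of 3 females. Whether they are separate animals is thus not settled by the labels, and the spread between them may be partly technical. Values are given per library and as mean ± SD (n = 2), in TPM (transcript abundance scaled by length and depth), and no test between groups was possible. Each library has 2 sets of deposited tables, called here the first quantification, which is used unless stated, and the second quantification.

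Smooth muscle cells contract when calcium and calmodulin activate myosin light chain kinase, the product of Mylk, which phosphorylates the regulatory light chain of smooth muscle myosin. Transgelin (Tagln), calponin (Cnn1) and smoothelin (Smtn) are actin-associated proteins of the same contractile apparatus, and their genes are known targets of serum response factor with its partner myocardin. Pericytes, which sit on capillaries within the basement membrane, are recruited by PDGF-B from endothelium acting on the receptor Pdgfrb, and they also carry Cspg4 (the proteoglycan NG2) and Rgs5. Notch3 is the Notch receptor of arterial smooth muscle and pericytes. The heart has a dense capillary bed, and its pericytes are abundant.

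All 10 genes stood at 1 TPM or more in both libraries, with means between 3.11 TPM for Cnn1 and 156 TPM for Rgs5, a 50.3-fold range. By mean TPM, 11720 of 22015 nuclear protein-coding genes reached 1 TPM, and 12280 of the 12876 genes averaging 50 or more expected counts. Reaching 1 TPM is thus usual for well-counted genes, here and in the lists below. Rgs5 alone made up 42.9% of the summed TPM of the 10 genes in replicate 1 and 40.9% in replicate 2. The order by mean TPM was Rgs5, Smtn, Pdgfrb, Tagln, Notch3, Vtn, Mylk, Cspg4, Higd1b and Cnn1, and of the neighbours in that order, Vtn and Mylk were the pair whose library values overlapped. In the second quantification the order of Vtn and Mylk and of Cspg4 and Higd1b was reversed in both libraries. Tagln stayed above Notch3 there in replicate 1 (21.6 against 19.4 TPM) but lay below it in replicate 2 (19.1 against 20.6 TPM). The median of the 10 means was 16.9 TPM, and the library medians were 17.2 TPM in replicate 1 and 17.0 TPM in replicate 2. Fewer cells of a type and less RNA per cell cannot be told apart in tissue RNA, so these are levels in the heart and not in the cells.

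**Figure D1:**
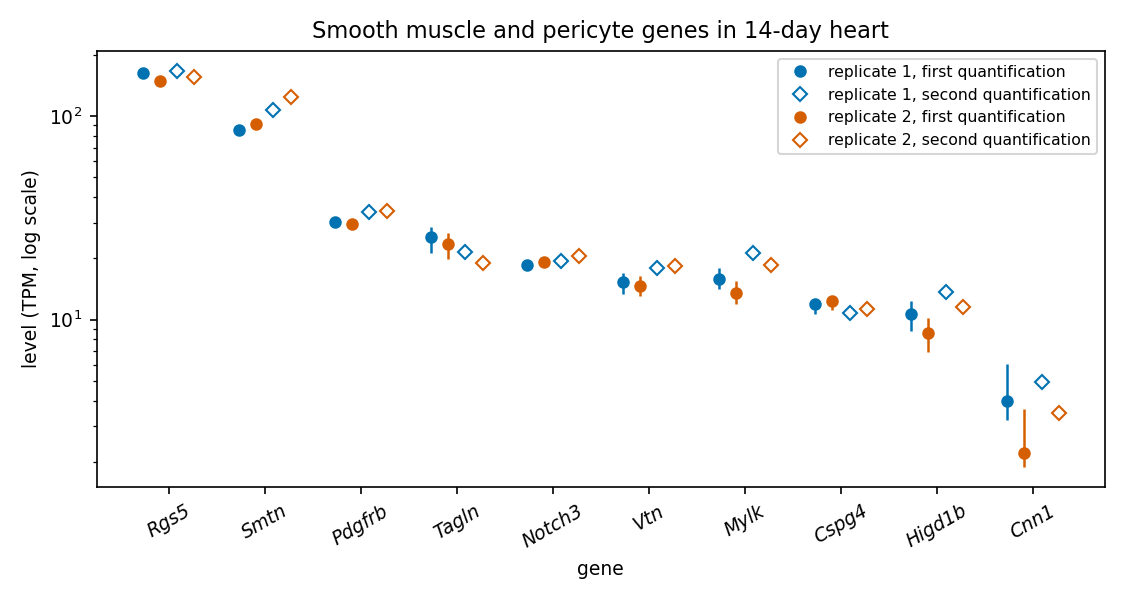
Level of each gene in TPM on a log axis, ordered by mean. Filled circles are the first quantification and open diamonds the second, blue replicate 1 and orange replicate 2. Vertical lines are the deposited intervals, which belong to the posterior mean TPM, so a circle can lie outside its line. Rgs5 lies highest at 163 TPM in replicate 1 and 149 TPM in replicate 2, and Cnn1 lowest at 3.98 and 2.23 TPM.

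Smoothelin was the highest of the 4 contractile genes. Smtn (ENSMUSG00000020439.17, chromosome 11, 3517523 to 3540612, minus strand, mm10) had 85.8 TPM in replicate 1 and 91.8 TPM in replicate 2, with 4126 and 4156 expected counts. Both libraries lay close together, and the second quantification gave 107 and 123 TPM. Smoothelin is known in a short form of visceral smooth muscle, made from an internal start site, and a long form of vascular smooth muscle. The transcript that led here was the short Smtn-201, with 56.1 ± 0.665% of the gene's TPM (48.5 TPM in replicate 1 and 51.0 TPM in replicate 2). The long coding forms Smtn-203 and Smtn-202 held 12.9 ± 2.23% and 6.18 ± 1.12%. Smtn-210 and Smtn-204, also long and coding, held 1.03 ± 0.629% and 0.580 ± 0.820%. By expected counts Smtn-201 held 54.5% and 54.9% in replicates 1 and 2, and by TPM of the second quantification 50.8% and 48.3%. Smtn-201 was the leading transcript in both libraries and by both quantifications.

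Smtn-201 starts 11302 bases downstream of Smtn-203, at base 3527937 of chromosome 11, and has 9 exons and a coding sequence of 1311 bases against 2772 in Smtn-203. Its first 399 coding bases are in neither Smtn-202 nor Smtn-203, and at coding position 400 it joins the frame of both at their position 1627. Smtn-202 holds 912 of its coding bases, all from that position on, and Smtn-203 holds 767, since it lacks a later exon of Smtn-201. The sequences that separate the forms are shown because the shares above rest on reads that tell them apart. The first line is the start of the Smtn-201 coding sequence (3527707 to 3527826, minus strand), with the start codon in capitals. The other lines run across the joint between separate and shared coding sequence, with the bases before the shared part in capitals (between 3526421 and 3527487 for Smtn-201, and between 3526421 and 3529499 for Smtn-203).
Smtn-201 start: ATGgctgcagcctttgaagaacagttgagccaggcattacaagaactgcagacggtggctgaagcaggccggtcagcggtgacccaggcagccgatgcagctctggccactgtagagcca
Smtn-201 junction: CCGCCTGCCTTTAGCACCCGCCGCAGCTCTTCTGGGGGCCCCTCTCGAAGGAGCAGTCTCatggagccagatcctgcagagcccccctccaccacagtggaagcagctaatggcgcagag
Smtn-203 junction: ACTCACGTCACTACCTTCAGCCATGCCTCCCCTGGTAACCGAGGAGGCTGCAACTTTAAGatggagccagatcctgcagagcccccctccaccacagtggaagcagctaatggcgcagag

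Myosin light chain kinase also has a short product from its 3' end, telokin, which holds the last part of the kinase but no kinase activity. Mylk (ENSMUSG00000022836.11, chromosome 16, 34745210 to 35002420, plus strand) had 15.9 TPM in replicate 1 and 13.5 TPM in replicate 2, from 1744 and 1487 expected counts. The second quantification gave 21.3 and 18.6 TPM, higher in both libraries. The long kinase transcript Mylk-201 held 40.3 ± 2.99% of the gene's TPM and the short Mylk-203, whose coding sequence is that of telokin, 22.3 ± 1.78%. In the second quantification Mylk-203 led with 34.2 ± 2.79%, so the order of the 2 coding transcripts by TPM depended on the program. By counts Mylk-201 led in both quantifications. It held 75.5% and 80.8% in replicates 1 and 2 by the first and 61.1% and 64.7% by the second. Noncoding transcripts held 38.2% and 36.5% of the TPM in replicates 1 and 2, most of it in Mylk-204 with 26.4 ± 4.41%. Of the expected counts Mylk-204 held only 4.18% and 5.10%. In the second quantification the highest noncoding share was instead that of Mylk-207, 20.4 ± 1.22% against 13.7 ± 4.87% for Mylk-204, and Mylk-207 also held more expected counts than Mylk-204 in both libraries.

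Mylk-203 begins 209886 bases downstream of Mylk-201 and has 3 exons. Its coding sequence of 480 bases lies wholly inside the 5853 coding bases of Mylk-201, in frame, from position 5374. The same ATG, in capitals below, is thus the start codon of Mylk-203 and an internal codon of Mylk-201 (34995116 to 34996756 for the first line, 34988988 to 34995175 for the second, plus strand of chromosome 16). Coding sequence past it is shared by both, while the last exon of Mylk-201 runs further 3' than that of Mylk-203.
Mylk-203: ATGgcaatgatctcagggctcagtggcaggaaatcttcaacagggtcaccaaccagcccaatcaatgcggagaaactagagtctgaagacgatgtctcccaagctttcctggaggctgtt
Mylk-201: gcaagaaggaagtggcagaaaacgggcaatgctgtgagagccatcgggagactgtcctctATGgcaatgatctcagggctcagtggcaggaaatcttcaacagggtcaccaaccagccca

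**Figure D2:**
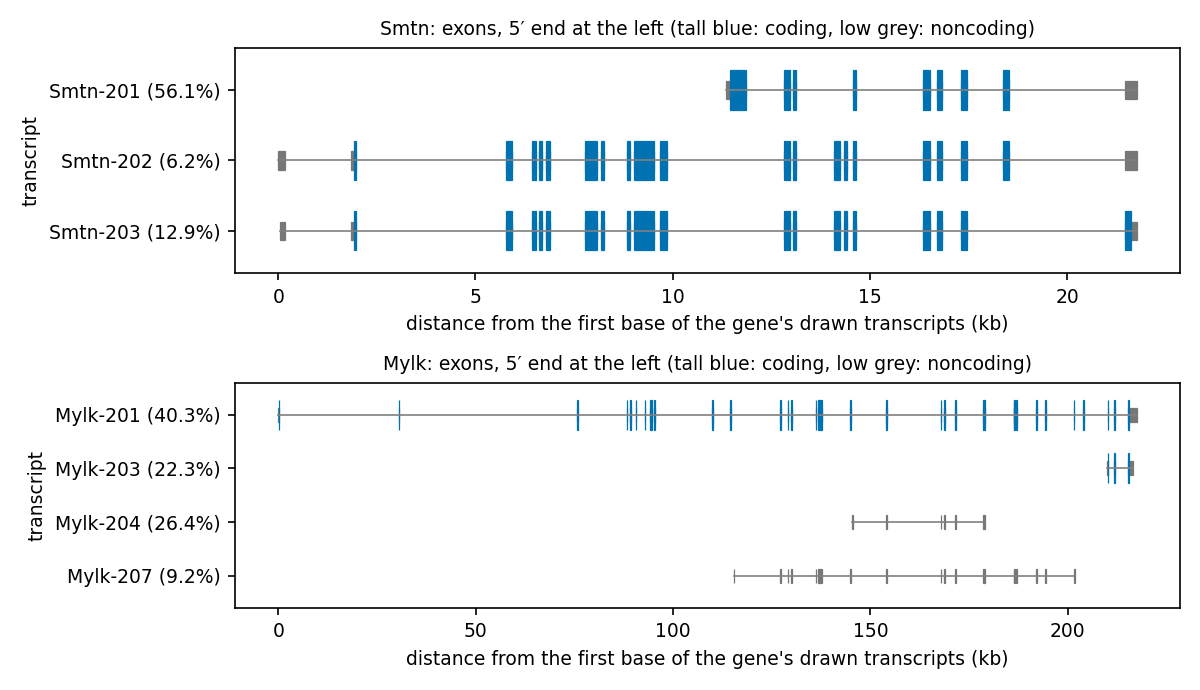
Exons of 3 Smtn and 4 Mylk transcripts by distance in kb from the first base of the drawn transcripts, with the 5' end at the left; tall blue boxes are coding, low grey boxes are not, and the mean share of the gene's TPM stands beside each name. Smtn-201 (56.1%) begins 11.4 kb from the first base drawn and Mylk-203 (22.3%) covers only the last exons of Mylk-201 (40.3%).

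Transgelin, an early and widely used marker of smooth muscle, was at a moderate level. Tagln (ENSMUSG00000032085.5, chromosome 9, 45929619 to 45936058, minus strand) had 25.4 TPM in replicate 1 and 23.6 TPM in replicate 2, from 790 and 652 expected counts, and 21.6 and 19.1 TPM in the second quantification. The full-length Tagln-201 held 64.0 ± 4.91% of the TPM. The short Tagln-202, whose 328 coding bases all lie within Tagln-201, held 31.2% and 38.3% from only 60.2 and 66.2 expected counts, and 0 in the second quantification. The log2 ratio of Tagln to its broadly expressed paralogue Tagln2 was -0.86 ± 0.01, but -1.36 in the second quantification. Tagln2 had 46.0 and 43.25 TPM in replicates 1 and 2, and Tagln3 had 0.16 and 0.13 TPM.

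Calponin was the lowest of the 10 genes and the least precisely measured. Cnn1 (ENSMUSG00000001349.5, chromosome 9, 22099216 to 22109630, plus strand) had 3.98 TPM in replicate 1 and 2.23 TPM in replicate 2, but only 123 and 95 expected counts. The TPM ratio of replicate 1 over replicate 2 was 1.78, the ratio of counts per unit depth (CPM) was 1.23, and the effective length used for the TPM was 1099 bases in replicate 1 and 1570 bases in replicate 2. A short transcript of 868 bases led in replicate 1 with 47.1% and the long one of 2381 bases in replicate 2 with 51.4%, the only change of leading transcript between libraries among the 10 genes. This change was seen in TPM of the first quantification only: by expected counts the long transcript led in both libraries with 56.3% and 74.7%, and in the second quantification the short one led in both with 59.1% and 50.9%. Calponins of non-muscle cells were higher: the log2 ratio of Cnn1 was -2.43 ± 0.72 to Cnn2 (15.1 TPM in replicate 1 and 17.1 TPM in replicate 2) and -3.24 ± 0.57 to Cnn3 (28.5 and 27.95 TPM).

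The other genes of the contractile apparatus were nearly all present, 13 of 14 at 1 TPM or more. Smooth muscle actin Acta2 led with 169 ± 8.28 TPM, followed by the light chains Myl6 (154 ± 5.86 TPM) and Myl9 (123 ± 2.76 TPM) and the myosin phosphatase subunit Ppp1r12b (59.4 ± 0.898 TPM). The log2 ratio of Tagln was -2.79 ± 0.15 to Acta2 and 1.22 ± 0.17 to the smooth muscle myosin heavy chain Myh11. In the second quantification these ratios were -3.69 and 0.78. Acta2, Myl6 and Ppp1r12b are also made by other cells of the heart. All 9 listed regulators of smooth muscle genes reached 1 TPM, among them myocardin (Myocd, 44.4 ± 0.127 TPM), Gata6 (43.6 ± 5.06 TPM), Srf (41.3 ± 3.36 TPM) and Klf4 (19.3 ± 7.60 TPM; 24.7 TPM in replicate 1 and 14.0 TPM in replicate 2), and cardiomyocytes are known to express Myocd, Srf and Gata6 too.

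Kinases related to Mylk were far higher than Mylk itself. The cardiac kinase Mylk3 had 150 TPM in replicate 1 and 156 TPM in replicate 2, and Mylk4 had 91.7 and 89.0 TPM. The log2 ratio of Mylk was -3.39 ± 0.21 to Mylk3, a 10.5-fold difference, and -2.63 ± 0.14 to Mylk4. In the second quantification these ratios were -3.08 and -2.33. Mylk2, the skeletal muscle kinase, had 0.17 and 0.13 TPM. Smtn was the reverse, 2.71 ± 0.06 log2 units above Smtnl2, and 2.32 above it in the second quantification. Smtnl2 had 12.75 and 14.45 TPM, with Smtnl1 at 0.06 and 0.11 TPM.

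**Figure D3:**
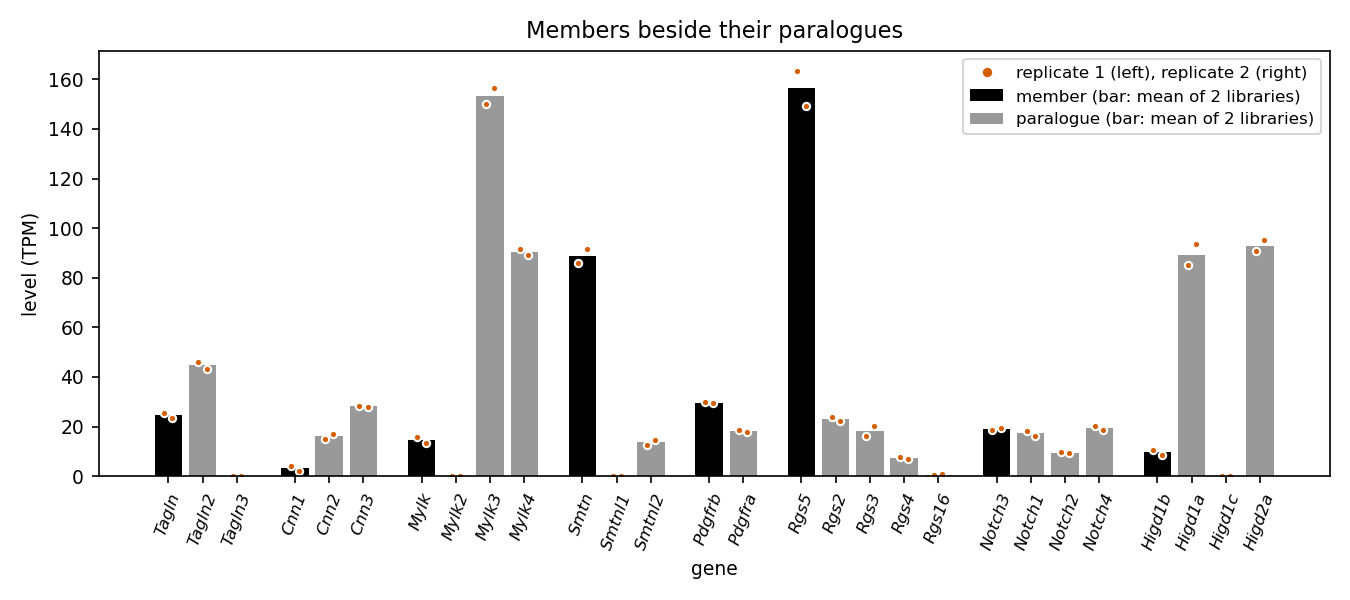
Level in TPM of 8 of the genes (black bars) beside their paralogues (grey bars); bars are means of 2 libraries and orange points the libraries, replicate 1 at the left. Rgs5 and Smtn stand above every paralogue drawn, while Mylk, Cnn1 and Higd1b stand below theirs that are expressed.

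Rgs5, a regulator of G protein signalling that is among the most used pericyte markers, was the highest of the 10 genes. Rgs5 (ENSMUSG00000026678.10, chromosome 1, 169655501 to 169695813, plus strand) had 163 TPM in replicate 1 and 149 TPM in replicate 2, from 18080 and 15801 expected counts, which ranked it 378 by mean TPM among 22015 nuclear protein-coding genes. The deposited intervals, 157.1 to 162.4 TPM in replicate 1 and 143.1 to 148.8 TPM in replicate 2, did not overlap, though the difference was under 2-fold. They belong to the posterior mean TPM, 159.7 and 145.9, and the TPM of each library lay above its interval. The Rgs5 transcript of 4096 bases held 97.7 ± 0.771% of the TPM of the gene. Related genes were lower: Rgs5 lay 2.75 ± 0.02 log2 units above Rgs2, 3.10 ± 0.32 above Rgs3 and 4.40 ± 0.03 above Rgs4, and Rgs16 had 0.49 and 0.79 TPM.

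Higd1b, a member of the hypoxia-inducible domain family and a marker of pericytes in single-cell surveys, had 10.6 TPM in replicate 1 and 8.61 TPM in replicate 2 (ENSMUSG00000020928.14, chromosome 11, 102835849 to 102838040, plus strand). With 159 and 121 expected counts it was one of the least deeply counted of the 10 genes. The first quantification divided it among 3 transcripts, with 51.8 ± 4.55% in Higd1b-201, and the second gave all of it to Higd1b-201. All 3 transcripts have the same coding sequence of 297 bases, so this division leaves the protein unchanged. It is given here (102836663 to 102837969, plus strand) with the start and stop codons in capitals. The mitochondrial paralogues were higher, with a log2 ratio of Higd1b to Higd1a of -3.22 ± 0.31 and to Higd2a of -3.28 ± 0.26. In the second quantification these ratios were -3.98 and -3.05. Higd1c had 0 counts in both libraries, which allows up to 3 counts.
Higd1b: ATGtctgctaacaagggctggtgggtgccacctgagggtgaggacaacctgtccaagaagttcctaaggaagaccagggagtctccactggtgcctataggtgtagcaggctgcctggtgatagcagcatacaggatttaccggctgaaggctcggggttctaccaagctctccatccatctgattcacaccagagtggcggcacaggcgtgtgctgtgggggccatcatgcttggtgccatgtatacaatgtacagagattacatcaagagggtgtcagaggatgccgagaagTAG

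Vitronectin, a secreted adhesive protein that pericytes make and the liver releases into blood, had 15.3 TPM in replicate 1 and 14.7 TPM in replicate 2 (Vtn, ENSMUSG00000017344.4, chromosome 11, 78499091 to 78502324, plus strand). Transcript Vtn-201 held 74.4 ± 4.89% of it. Markers of hepatocytes were near 0, with Alb at 0.02 TPM in replicate 1 and 0.38 TPM in replicate 2, and the 5 markers, 1 of them at 1 TPM or more, summed to 2.32 and 2.22 TPM. Its receptor subunit Itgav had 17.6 and 18.9 TPM, and the log2 ratio of Vtn to it was -0.28 ± 0.11, but 0.26 in the second quantification. Other receptor subunits were Itgb1 (196 ± 1.12 TPM) and Itgb5 (30.5 ± 0.0990 TPM).

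Cspg4, the proteoglycan NG2 of the pericyte surface, had 11.9 TPM in replicate 1 and 12.3 TPM in replicate 2 (ENSMUSG00000032911.6, chromosome 9, 56865033 to 56899870, plus strand), from 2048 and 2125 expected counts. The coding transcript held 57.1 ± 4.05% of it and transcripts with a retained intron 45.8% and 40.1% in replicates 1 and 2. The second quantification gave the coding transcript 85.7 ± 7.81%. NG2 also marks oligodendrocyte precursors, and Olig2, which defines them, had 0 counts in both libraries.

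Notch3 had 18.5 TPM in replicate 1 and 19.2 TPM in replicate 2 (ENSMUSG00000038146.8, chromosome 17, 32120820 to 32166852, minus strand), with 4064 expected counts in each, and its transcript of 8016 bases held 98.3 ± 0.262% of it. The other receptors were at similar or lower levels. Notch3 lay 0.99 ± 0.09 log2 units above Notch2 and 0.13 ± 0.16 above Notch1, a difference smaller than its spread. Against Notch4, an endothelial receptor, it was -0.12 in replicate 1 and 0.06 in replicate 2, so the order of these 2 was not fixed. All 10 other listed genes of the pathway reached 1 TPM, led by Hes1 (13.8 ± 2.35 TPM), Jag2 (13.1 ± 0.672 TPM), Rbpj (12.9 ± 1.35 TPM) and the mural target Heyl (10.2 ± 1.56 TPM).

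Pdgfrb, the receptor that draws pericytes to new vessels, was the third highest of the 10 genes, with 30.01 TPM in replicate 1 and 29.35 TPM in replicate 2 (ENSMUSG00000024620.11, chromosome 18, 61045150 to 61085061, plus strand), from 4478 and 4228 expected counts. All of it was given to the transcript Pdgfrb-201 in the first quantification, and 96.6 ± 1.66% in the second. Pdgfrb lay 0.71 ± 0.0048 log2 units above Pdgfra, the receptor of fibroblasts, and 0.79 ± 0.04 above its ligand gene Pdgfb. In the second quantification these ratios were 0.82 and 0.66. The ligands Pdgfb (17.1 ± 0.735 TPM) and Pdgfa (11.9 ± 1.73 TPM) stood above Pdgfd (5.81 TPM) and Pdgfc (1.39 TPM). Pdgfrb is also expressed by cardiac fibroblasts.

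The 12 other genes listed as companions of pericytes were all at 1 TPM or more, with a median of 11.3 TPM. Abcc9 and Kcnj8, which encode the subunits of the ATP-sensitive potassium channel of pericytes, had 98.2 ± 7.21 TPM and 17.0 ± 0.799 TPM, and cardiomyocytes are known to express Abcc9. Mcam had 33.9 ± 0.198 TPM and Ndufa4l2 16.5 ± 0.580 TPM. Endothelial markers had a median of 43.0 TPM, fibroblast markers 41.6 TPM and cardiomyocyte markers 758 TPM, 5 of 5 at 1 TPM or more in each list.

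**Figure D4:**
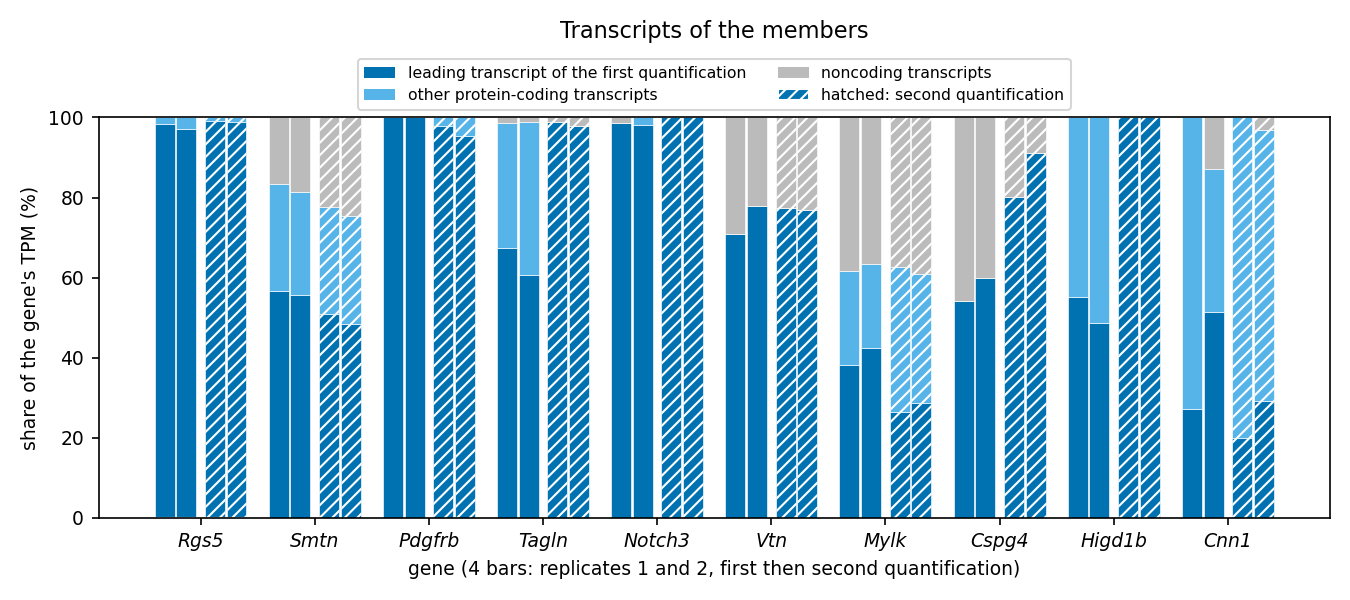
Share of each gene's TPM in percent, in the leading transcript of the first quantification (dark blue), other coding transcripts (light blue) and noncoding transcripts (grey); the 4 bars of a gene are replicates 1 and 2 of the first and then, hatched, of the second quantification. Pdgfrb, Notch3 and Rgs5 are nearly all 1 transcript, and the dark blue share of Cnn1 runs between 19.9% and 51.4% over its 4 bars.

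As a mean of the libraries, 50% or more of the TPM lay in a single transcript for 8 of the 10 genes, all but Mylk and Cnn1. The second quantification also gave 8, with Cnn1 in and Smtn out, at 49.6 ± 1.75%. The leading transcript was the same by both quantifications in 8 genes. The second quantification was the higher in 8 genes, all but Tagln and Cspg4. The share of all genes higher in it was not computed, so this is not read as a trait of the 10. Among other listed genes, Acta2, Pecam1 and Col1a1 were also higher in it, and Myh6 and Cnn2 were lower. A total of 4 genes overlap 8 genes on the opposite strand (Tagln, Mylk, Smtn and Notch3), of which Pcsk7, at the end of Tagln, was the highest with 9.74 TPM in replicate 1 and 10.9 TPM in replicate 2. The sources used here do not say how strand was used in counting, so reads in those overlaps are uncertain.

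None of the 10 genes differed by the rule of size (at least 2-fold in TPM + 1 after the median difference of all genes was removed, with deposited intervals apart), which called 0.349% of the 12876 genes averaging 50 or more expected counts. The deposited intervals lay apart for 1 of the 10, Rgs5, against 12.1% of all genes. The median log2 difference, replicate 1 minus replicate 2, was 0.10 for the 10 genes and 0 for all genes by construction, and the median absolute difference was 0.103 against 0.113.

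Counting error alone was small enough to separate the libraries for some genes. Scaled by library totals, the 95% counting interval of the CPM ratio left out 1 in 6 of the 10 genes, against 36.1% of all genes. Tagln (1.15, interval 1.04 to 1.28), Mylk (1.11, 1.04 to 1.19) and Rgs5 (1.09, 1.06 to 1.11) were higher in replicate 1. Smtn (0.942, 0.902 to 0.984), Notch3 (0.949, 0.909 to 0.992) and Cspg4 (0.915, 0.861 to 0.972) were lower in it. This split depended on the scaling, since the median ratio of all genes was 0.964 under library totals. With TMM factors the interval left out 1 in 4 genes (Tagln, Mylk, Rgs5 and Higd1b), all higher in replicate 1, against 32.7% of all genes. With DESeq2 size factors it did so in 5 genes, these and Pdgfrb, all higher in replicate 1, against 32.2%. Under both of these scalings Smtn, Notch3 and Cspg4 had intervals that held 1. Their ratios were still below 1 with TMM factors (0.969, 0.976 and 0.941). Only the interval that left out 1 was particular to library totals. Airway marker Scgb1a1 had 97.6 TPM in replicate 1 and 5.96 TPM in replicate 2, and the 5 lung and airway markers, 1 of them at 1 TPM or more, summed to 99.95 and 6.96 TPM. The part of other tissue in the differences was not tested.

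**Figure D5:**
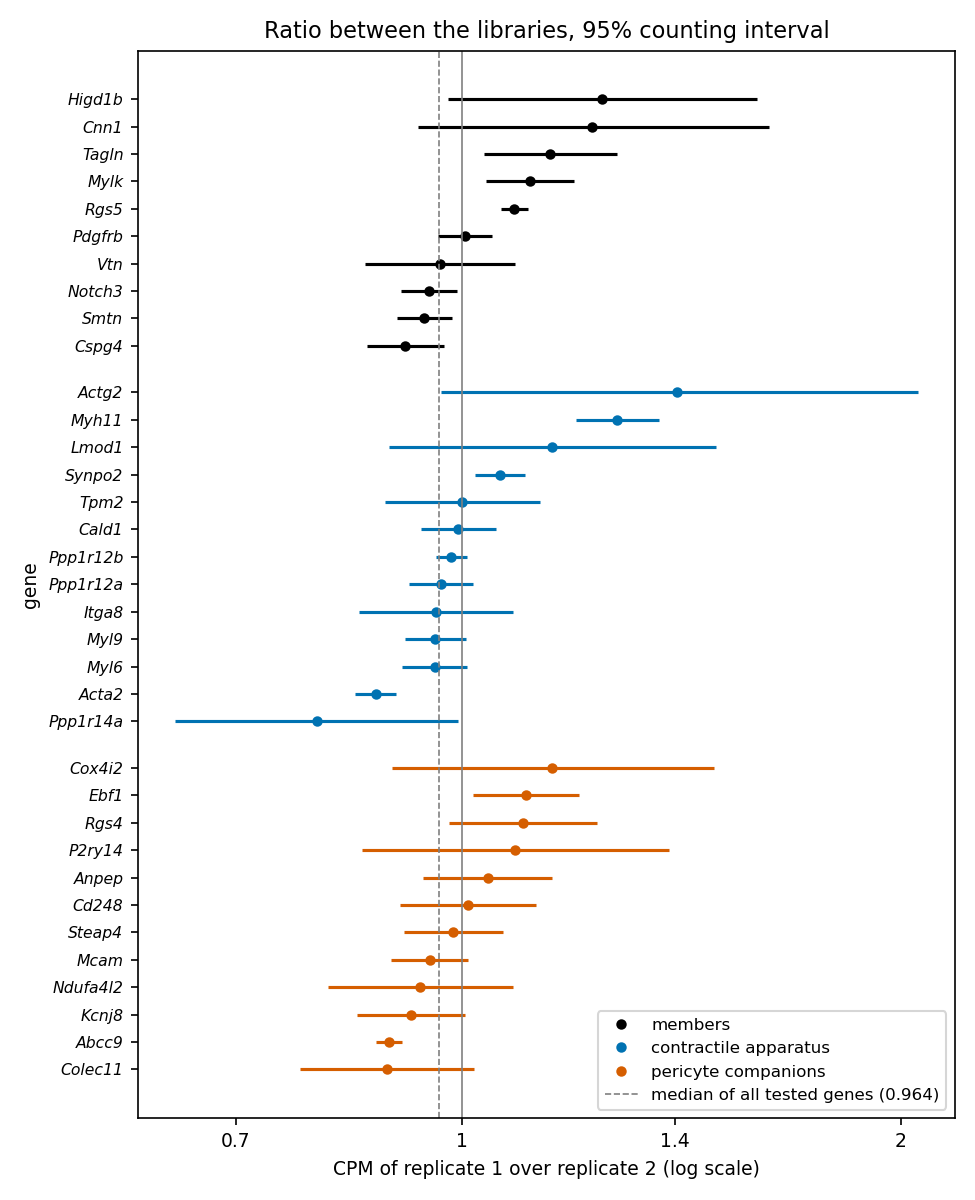
Ratio of CPM of replicate 1 over replicate 2 on a log axis for the 10 genes (black), the contractile apparatus (blue) and pericyte companions (orange), scaled by library totals; lines are 95% counting intervals, the solid line is 1 and the dashed line the median of all tested genes, 0.964. The 10 genes lie between 0.915 and 1.25.

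As a group the 4 contractile genes summed to 131.1 TPM in both replicates. The other 6 genes, labelled mural for short, summed to 249.7 TPM in replicate 1 and 233.5 TPM in replicate 2. The 2 groups do not divide smooth muscle from pericytes, since smooth muscle cells are mural cells too and Notch3 marks both. The log2 ratio of contractile to mural sums was -0.93 in replicate 1 and -0.83 in replicate 2. It rests mostly on 1 gene in each sum, Smtn with 85.8 and 91.8 TPM and Rgs5 with 163 and 149 TPM. The equal contractile sums hide a higher Smtn in replicate 2 beside lower Tagln, Mylk and Cnn1. RefSeq promoter windows of the GRCm38.p6 assembly, 250 bases before the start to 50 after it, were matched for 7 of the 10 genes, all but Tagln, Higd1b and Pdgfrb. None of the 7 held a CArG box, the motif that serum response factor binds, searched on both strands, and 1.63% of all 32851 windows did. This says only that these letters were not in those windows.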

How the data were processed

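Total RNA of 2 heart libraries was analysed from deposited tables, whose programs the sources used here do not name. Per the labels, ERCC spike-ins were used for libraries with ribosomal RNA reduced. The deposited readme files name mm10 and GENCODE M21. Per the file headers, the first quantification holds expected counts, TPM, a posterior mean TPM with interval bounds (a score of precision in 1 library) and, per transcript, its percent of the TPM of its gene. Per the file headers, the second holds estimated counts and TPM per transcript, summed here per gene. The handling of CAST/EiJ alleles against mm10 is not stated in these sources.

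Depth was 36404376 expected counts in replicate 1 and 34569708 in replicate 2, of which 36197643 and 34358598 lay in annotated genes. The libraries differed beyond sampling noise, with a chi-square of 12.6 for each degree of freedom in 16384 genes averaging 10 or more expected counts. With 1 group there was no test between groups. Genes averaging 50 or more expected counts entered comparisons of libraries, on log2(TPM + 1). Counting intervals are exact Clopper-Pearson at 95% and cover counting error only. The ratio was scaled by totals of annotated genes, as in earlier work on these data. TMM and DESeq2 scalings of it were added after the values under totals had been seen. Scripts were tested on simulated data. Named genes are the 10 markers, all paralogues, and the 4 highest of each other list; a few others are named beside a result and were chosen after their values were seen. Some genes that this rule selects are not reported here. The markers and lists were chosen with earlier results of these data known. Tools were Python 3.11.15, numpy 2.4.6, pandas 2.3.3, scipy 1.17.1, matplotlib 3.10.9, R 4.3.3, edgeR 4.0.16 (TMM factors 0.986 and 1.01) and DESeq2 1.42.0 (size factors).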

Additional observations from a re-analysis of the deposited data

How the results depend on the processing

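All 10 genes stayed at 1 TPM or more in each alternative run where this was counted. None was called different in any alternative run that compared the libraries. The median level moved to 20.0 TPM in the second quantification, 39.4 TPM when TPM was summed over nuclear protein-coding genes, and 52.5 CPM with TMM factors and with DESeq2 size factors, which do not correct for length. Leaving out a replicate gave 17.0 to 17.2 TPM. The log2 ratio of contractile to mural sums, -0.88 as a mean, was -0.69 in the second quantification and -2.09 in CPM. Genes called by the rule of size numbered 45, and 91 with a pseudocount of 0.1. The second quantification moved the mean TPM of 8 of the 10 genes beyond their SD, and the posterior mean moved 1. The counting interval left out 1 in 6 genes by library totals, 4 with TMM factors and 5 with DESeq2 size factors. The causes were not tested. No paired analysis was possible because there is 1 group. With 2 libraries the SD is itself uncertain, and Cnn1 and Higd1b are limited by counts.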
